A study of Rattus norvegicus with 16 samples.

Results

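The genes of the urea cycle and of the ammonia and glutamate steps around it were followed in livers of obese male Zucker rats on a diet of soy protein isolate (SPI) or of casein (CAS). They were chosen by name, as 10 enzymes: Cps1, Otc, Ass1, Asl, Arg1, Nags, Glul, Gls2, Glud1 and Gpt. Of these 10, 7 had a row among the 9645 genes of the table, and all 7 passed the filter on low values, which left 8004 genes. Cps1, Ass1 and Asl were not analysed here, so the results on the cycle itself rest on Otc, Arg1 and Nags.

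Both groups were rats of the same obese strain, fed for 16 weeks, with 8 rats on the SPI-based diet and 8 on the CAS-based diet and 1 liver library per rat, named here SPI 1 to SPI 8 and CAS 1 to CAS 8. Obese Zucker rats carry a defective leptin receptor, overeat and develop a fatty liver, and no lean or chow-fed rats were part of the comparison. The study's methods describe the soy protein as rich in isoflavones, so the protein source and what it carries cannot be told apart. The question was how the livers of the SPI-fed rats differed from those of the CAS-fed rats.

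Breakdown of amino acids in the liver releases ammonia, which is toxic, and hepatocytes around the portal vein turn it into urea. Carbamoyl phosphate, made in mitochondria with the help of N-acetylglutamate, is joined to ornithine by Otc, and after the steps in the cytosol Arg1 splits arginine into urea and ornithine. Gpt and Glud1 move nitrogen between alanine, glutamate and ammonia, Gls2 releases ammonia from glutamine, and Glul, in a thin layer of hepatocytes around the central vein, captures ammonia that was not made into urea. In rat liver the enzymes of this set are known to follow protein intake and hormones such as glucagon and glucocorticoids.

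Otc and Glud1, the 2 members called higher in SPI-fed rats by at least 1 test over all 16 libraries, are shown first by the 250 bases before their start sites, taken from RefSeq on build GRCr8 and written 5′ to 3′ on the strand of the gene. Of the 10 genes, 8 had an entry in the promoter set, among them 5 of the 7 measured. Capitals mark matches on either strand to 9 short motifs: the TATA box (TATAAA), the GC box (GGGCGG), the CCAAT box (CCAAT), nuclear receptor half-sites in a G form (AGGTCA) and a T form (AGTTCA), an HNF4 site (CAAAGTCCA), the cyclic AMP response element (TGACGTCA), a C/EBP site (TTGCGCAA) and the E-box (CACGTG). HNF4 and C/EBP factors are known regulators of hepatocyte genes.
Otc, chrX:15202474-15202723, minus strand: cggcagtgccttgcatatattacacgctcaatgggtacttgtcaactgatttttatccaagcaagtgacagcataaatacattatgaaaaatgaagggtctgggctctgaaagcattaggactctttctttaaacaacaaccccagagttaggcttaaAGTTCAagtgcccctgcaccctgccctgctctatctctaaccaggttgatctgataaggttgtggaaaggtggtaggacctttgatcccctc
Glud1, chr16:9646319-9646568, plus strand: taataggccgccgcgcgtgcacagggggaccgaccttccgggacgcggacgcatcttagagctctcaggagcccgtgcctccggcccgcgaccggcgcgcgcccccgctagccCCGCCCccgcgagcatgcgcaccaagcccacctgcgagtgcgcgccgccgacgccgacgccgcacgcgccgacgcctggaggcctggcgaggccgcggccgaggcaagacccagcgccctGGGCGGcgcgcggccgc
The capitals in the Otc window mark 1 nuclear receptor half-site of the T form, a match that 12.2% of the 33469 promoter windows of the same length hold. The window had a GC content of 44.4%, against a median of 51.2% over all windows. The Glud1 window held 2 GC boxes, a motif present in 30.5% of windows. Its GC content was 78.8%, and 98.5% of windows had a lower one. The 2 windows thus had no searched motif in common. A match is a string of letters and not a measured binding site.

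The values are read counts per gene that were divided by 1 size factor per library, called normalized counts here. The libraries held 14901365 to 21517766 reads in SPI-fed rats (median 18125061) and 17602306 to 21632979 in CAS-fed rats. The SPI libraries lay together on the first principal component of all tested genes, which took 19.1% of the variance, at scores of 10.4 to 26.7. CAS 1, CAS 2, CAS 3, CAS 5 and CAS 8 lay at -41.3 to -26.1. The other 3, CAS 4, CAS 6 and CAS 7, had scores between these and the SPI libraries, at 2.73, 1.18 and 1.19. Fewer cells of a type and less RNA per cell cannot be told apart in these whole-liver samples.

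The test for each gene was limma's, two-sided, on log2 of the normalized count plus 1 after quantile normalization, which gives every library the same distribution of values. The Benjamini-Hochberg adjustment ran over all 8004 genes, and a gene passed at an adjusted p under 0.05. On this scale 158 genes (1.97%) had higher and 232 (2.90%) had lower values in SPI-fed rats, and of the 7 measured members 0 were higher and 1, Arg1, was lower. Without the quantile step, on the deposited scale, 215 genes (2.69%) were higher and 226 (2.82%) were lower, and here Otc was higher and 0 members were lower. The set therefore had 1 call of 7 on either scale, in opposite directions and for different genes. The 2 scales had nearly the same median log2 fold change over all tested genes, 0.01 after quantile normalization and 0.00 on the deposited scale. They differed for abundant genes: over the 100 with the highest mean, the median was -0.02 after quantile normalization and 0.18 on the deposited scale. Arg1 was 50th and Otc 138th by mean normalized count, so both fell in or near the range in which the scales differed. Which scale is nearer to the transcript content of the livers was not tested.

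Otc, ornithine transcarbamylase, the mitochondrial enzyme that makes citrulline, had normalized counts of 12407 at the lowest, 12684 at the median and 13903 at the highest in SPI-fed rats, against 8254, 9691 and 13283 in CAS-fed rats. Of the CAS libraries, 7 lay below every SPI library, and CAS 7 alone overlapped. The mean was 12976 ± 604.7 in SPI-fed rats and 10100 ± 1701 in CAS-fed rats (SD, n = 8 each), a ratio of 1.28. The SPI-fed rats were also the more uniform for Otc, with a coefficient of variation of 4.66%, against 16.8% in CAS-fed rats, a difference in spread that was not tested. CAS 7, CAS 6 and CAS 4, the CAS libraries nearest to the SPI libraries on the first component, were the 3 highest CAS libraries for Otc, at 13283, 11616 and 10605.

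On the deposited scale Otc had a log2 fold change of 0.38 (SE, standard error, 0.09, 95% interval 0.20 to 0.56, adjusted p = 0.0126 from limma). On whole reads recovered from the table, edgeR gave 0.36 (adjusted p = 0.0191), where 2.45% of genes were higher, and DESeq2 gave 0.36 (adjusted p = 0.00509), where 3.85% were higher. After quantile normalization the difference was smaller, at 0.19 (SE 0.08, 95% interval 0.03 to 0.36), and did not pass (adjusted p = 0.183 from limma), and without numbers 2 and 8 it was 0.08. The call on the deposited scale held when any 1 library was left out (0.34 to 0.44, adjusted p of 0.00181 to 0.0323 from limma) and was lost when numbers 2 and 8 were left out of both diets (0.28, adjusted p = 0.126 from limma). Both omissions on this scale were chosen after seeing the data. The difference in Otc was thus positive on both scales and passed only without the quantile step.

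**Figure D1:**
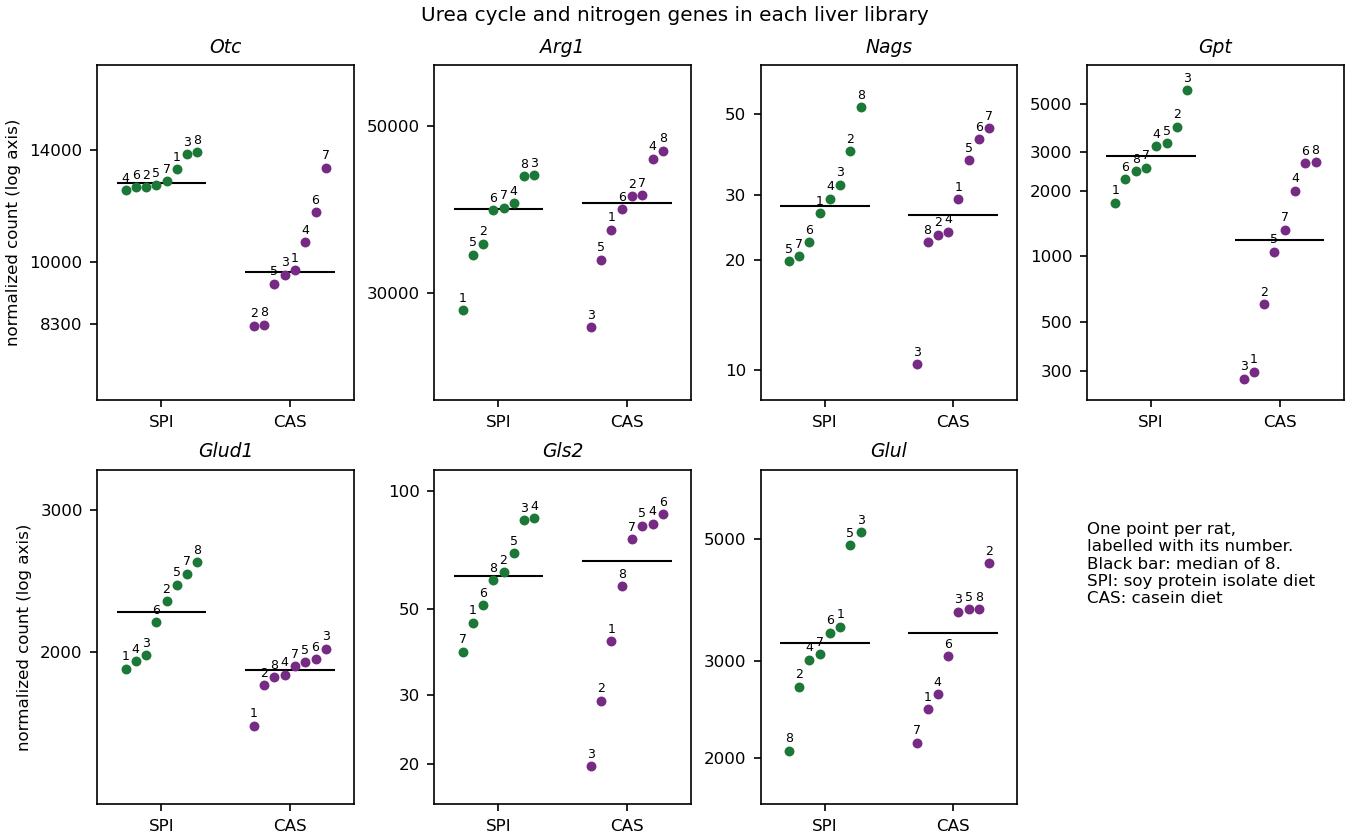
Normalized counts of the 7 measured genes in each library, on log axes that differ between panels. Points are rats with their numbers, SPI left of CAS, and black bars are medians of 8. The SPI libraries for Otc sit between 12407 and 13903, above all CAS libraries except CAS 7, and Gpt in CAS 1, CAS 2 and CAS 3 sits below every SPI library.

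Arg1, liver arginase, which releases urea in the last step of the cycle, had normalized counts of 28418 at the lowest, 38786 at the median and 43001 at the highest in SPI-fed rats, against 26987, 39554 and 46373 in CAS-fed rats. The groups overlapped over nearly their whole ranges: 1 CAS library lay below every SPI library and 2 lay above. The means were 37486 ± 4932 in SPI-fed rats and 38475 ± 6323 in CAS-fed rats (SD, n = 8 each), a ratio of 0.974. On the deposited scale the log2 fold change was -0.03 (SE 0.11, 95% interval -0.25 to 0.19, adjusted p = 0.910 from limma), and edgeR and DESeq2 gave -0.03 and -0.04 (adjusted p = 0.905 and 0.902).

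After quantile normalization Arg1 spanned 14.70 to 15.18 on the log2 scale in SPI-fed rats and 14.95 to 15.63 in CAS-fed rats. The log2 fold change was then -0.34 (SE 0.09, 95% interval -0.53 to -0.16, adjusted p = 0.0275 from limma), the only call among the 7 genes on this scale. The call was lost when any 1 of SPI 1, SPI 5, CAS 1, CAS 2 or CAS 8 was left out, with adjusted p of up to 0.0581, and when numbers 2 and 8 were left out of both diets (adjusted p = 0.149). Arg1 is also known as a product of some macrophages. Of 9 macrophage markers tested 0 passed the test. The summed normalized counts of the 10 markers with a row ranged from 5372 to 9237 in SPI-fed rats and from 6380 to 9745 in CAS-fed rats. Clec4f alone had means of 3558 and 3508 in SPI-fed and CAS-fed rats.

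Because a scaling factor multiplies every gene of a library alike, the ratio of Otc to Arg1 within a library does not depend on it. This ratio was chosen after the values of both genes had been seen and is given without a test. It was 0.314 at the lowest, 0.326 at the median and 0.465 at the highest in SPI-fed rats, against 0.179, 0.275 and 0.357 in CAS-fed rats. Of the CAS libraries 6 lay below every SPI library, and CAS 3 and CAS 7 lay within the SPI range. The mean difference was 0.41 on the log2 scale. Since the pair was picked for its values and the groups overlapped, the ratio is a description of these libraries, and it does not say which of the transcripts differed.

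**Figure D2:**
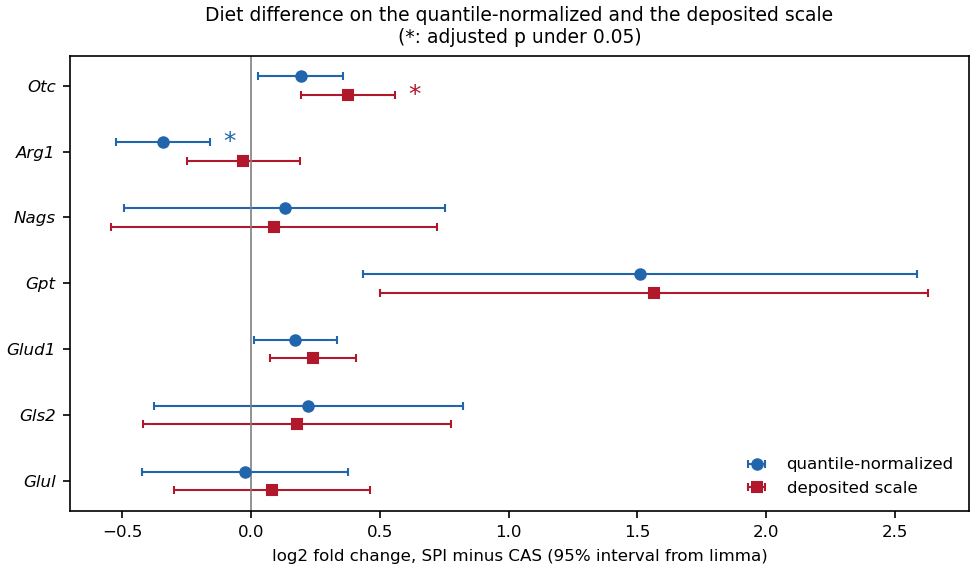
Log2 fold changes of SPI minus CAS for the 7 genes with 95% intervals from limma, after quantile normalization (circles) and on the deposited scale (squares). Stars mark an adjusted p under 0.05, which Arg1 has only after quantile normalization (-0.34) and Otc only on the deposited scale (0.38).

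Nags makes N-acetylglutamate, the activator without which the first enzyme of the cycle does not work. Its transcript was scarce, with normalized counts of 19.8 at the lowest, 28.1 at the median and 52.2 at the highest in SPI-fed rats, against 10.4, 26.5 and 45.8 in CAS-fed rats. The groups overlapped, with SPI 8 the highest and CAS 3 the lowest of the 16 libraries. The log2 fold change was 0.13 after quantile normalization (SE 0.30, 95% interval -0.49 to 0.75, adjusted p = 0.861 from limma). These values came from 20 to 38 reads in the SPI libraries and 11 to 47 in the CAS libraries, where counting alone gives a coefficient of variation of 14.6% to 30.2%. The value was -0.04 without CAS 3 and 0.24 without CAS 7, so its sign rested on single libraries.

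Gpt, the alanine aminotransferase of the cytosol, makes glutamate with the amino group of alanine, and its protein in blood is a clinical marker of liver injury. Normalized counts were 1760 at the lowest, 2868 at the median and 5762 at the highest in SPI-fed rats, against 276, 1189 and 2708 in CAS-fed rats. Of the CAS libraries 5 lay below every SPI library, and 4 SPI libraries lay above every CAS library. Gpt was lowest in CAS 3, CAS 1 and CAS 2, at 276, 297 and 605. The mean of 3150 ± 1255 in SPI-fed rats was 2.30 times the 1368 ± 995.2 in CAS-fed rats (SD, n = 8 each).

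Gpt had the largest fold change of the 7 genes and the widest spread in CAS-fed rats, with a coefficient of variation of 72.8%, against 39.8% in SPI-fed rats. The log2 fold change was 1.51 after quantile normalization (SE 0.50, 95% interval 0.43 to 2.59, adjusted p = 0.108 from limma) and 1.56 on the deposited scale (adjusted p = 0.0834 from limma). Neither passed, nor did edgeR (1.21, adjusted p = 0.169) or DESeq2 (1.20, adjusted p = 0.0784). Leaving out 1 library at a time gave an adjusted p of 0.0601 to 0.194 from limma after quantile normalization and of 0.0471 to 0.159 on the deposited scale, where it passed only without CAS 6 (1.77). All 8 SPI libraries lay above the CAS median, as they did for Otc and Glud1. The share of all tested genes for which this holds was not counted.

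Glud1, glutamate dehydrogenase, releases ammonia from glutamate in mitochondria. It had normalized counts of 1909 at the lowest, 2246 at the median and 2586 at the highest in SPI-fed rats, against 1625, 1900 and 2021 in CAS-fed rats. All 8 SPI libraries lay above the CAS median, 5 of them above every CAS library, and 4 CAS libraries lay below every SPI library. The mean was 2230 ± 264.8 in SPI-fed rats and 1880 ± 120.3 in CAS-fed rats (SD, n = 8 each), a ratio of 1.19.

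The log2 fold change of Glud1 was 0.17 after quantile normalization (SE 0.08, 95% interval 0.01 to 0.33, adjusted p = 0.232 from limma) and 0.24 on the deposited scale (adjusted p = 0.0819 from limma). With edgeR it was 0.25 (adjusted p = 0.0694), and DESeq2 alone put it past the threshold, at 0.25 (adjusted p = 0.0479). Of the 7 genes, DESeq2 called Otc and Glud1 as higher and 0 as lower.

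**Figure D3:**
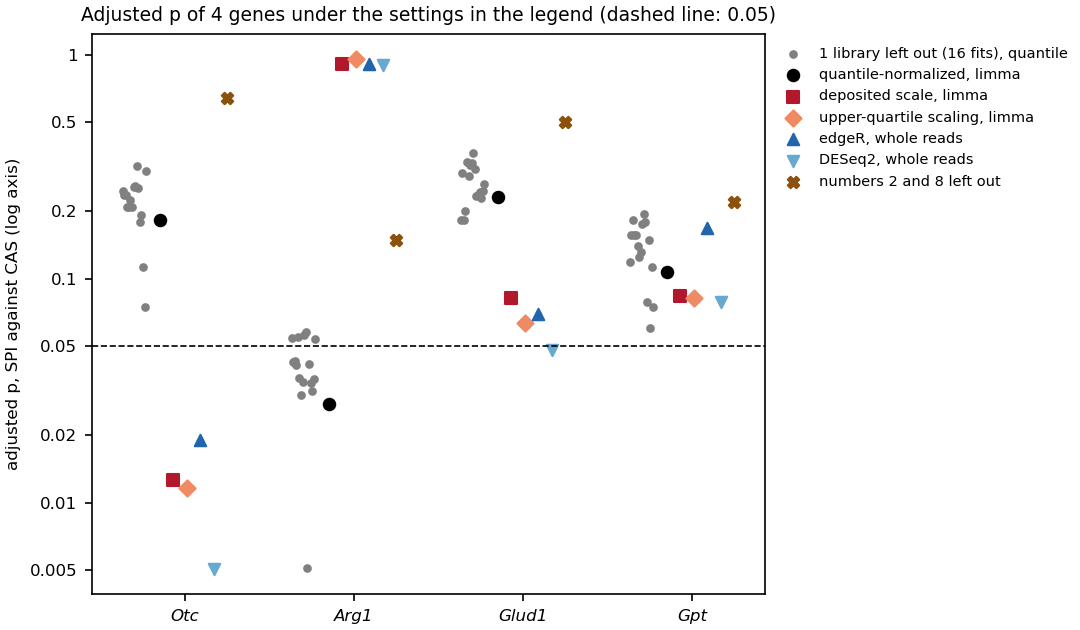
Adjusted p for SPI against CAS (log axis) of Otc, Arg1, Glud1 and Gpt under the settings of the legend, with the 16 quantile-normalized fits that leave out 1 library in grey and a dashed line at 0.05. Otc falls below the line on the deposited scale (0.0126), after upper-quartile scaling and in edgeR and DESeq2, Arg1 only after quantile normalization (0.0275), Glud1 only in DESeq2 (0.0479), and Gpt in none.

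Gls2, the liver form of glutaminase, feeds ammonia from glutamine to the cycle in periportal cells. Normalized counts were 38.8 at the lowest, 60.5 at the median and 85.2 at the highest in SPI-fed rats, against 19.8, 66.1 and 87.3 in CAS-fed rats. The CAS libraries took both ends of the range: CAS 3 and CAS 2, at 19.8 and 29.1, lay below every SPI library, and CAS 6 lay above. The log2 fold change was 0.22 (SE 0.29, 95% interval -0.38 to 0.82, adjusted p = 0.730 from limma), from 36 to 93 reads in the SPI libraries and 21 to 96 in the CAS libraries. It rested on the low CAS libraries: it was 0.02 without CAS 3 and 0.09 without CAS 2, and edgeR and DESeq2 gave 0.07 each.

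Glul, glutamine synthetase, captures ammonia as glutamine in pericentral cells. Its normalized counts were 2065 at the lowest, 3232 at the median and 5137 at the highest in SPI-fed rats, against 2137, 3376 and 4522 in CAS-fed rats. The ranges covered each other almost fully. The log2 fold change was -0.02 after quantile normalization (SE 0.19, 95% interval -0.43 to 0.38, adjusted p = 0.962 from limma) and 0.08 on the deposited scale (adjusted p = 0.847 from limma), so that even its sign depended on the scale. The interval leaves room for a difference of up to about 0.4 on the log2 scale in either direction.

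How the members varied together among rats of 1 diet was described by correlations of the normalized log2 values after the diet means had been removed, over 16 libraries and 21 pairs. Of the pairs 12 had a positive r, and 0 passed a permutation test within diet after adjustment over the 21. The closest pair was Gls2 and Gpt, with a Pearson r of 0.78 (permutation p = 0.00366, adjusted p = 0.0769) and a Spearman rho of 0.79 (permutation p = 0.00294, adjusted p = 0.0529). Without CAS 2 and CAS 3, the libraries farthest from the median of Gls2, r was 0.68, and within the diets it was 0.71 in SPI-fed and 0.80 in CAS-fed rats. CAS 1, CAS 2 and CAS 3 were the 3 lowest CAS libraries for both genes. Arg1 was at 36416, 40366 and 26987 in CAS 1, CAS 2 and CAS 3, below its CAS median of 39554 in CAS 1 and CAS 3 and above it in CAS 2.

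Otc had a positive r with Nags (0.56, permutation p = 0.0493, adjusted p = 0.207, and a rho of 0.69, permutation p = 0.00504, adjusted p = 0.0529) and a negative one with Glul (-0.53, permutation p = 0.0291, adjusted p = 0.164). Nags likewise had a negative r with Glul (-0.55, permutation p = 0.0313, adjusted p = 0.164) and a positive one with Gls2 (0.66, permutation p = 0.0109, adjusted p = 0.114). None of these pairs passed the adjustment.

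**Figure D4:**
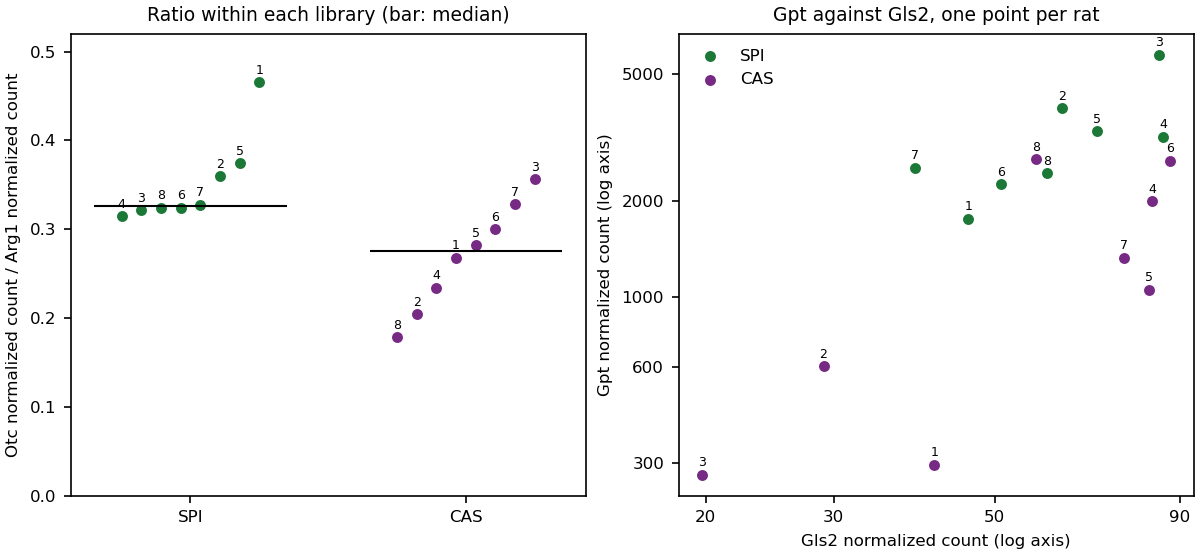
The left panel gives the ratio of Otc to Arg1 normalized counts in each library, with bars at the medians (0.326 for SPI and 0.275 for CAS). The right panel sets Gpt against Gls2 in each rat on log axes, where CAS 1, CAS 2 and CAS 3 sit low for both genes.

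Over all 8003 other tested genes, those most like each member were looked up by the same measure, so that their r values are the highest of many and are given as a description over 16 libraries. Nearest to Gpt were Ftcd (r = 0.89), which breaks down a product of histidine, and Gnmt (r = 0.87), the glycine methyltransferase that uses up methyl groups. Nearest to Gls2 were Sds (r = 0.87), the serine dehydratase that frees ammonia from serine, and LOC103690101 (r = 0.86). Otc was nearest to Tmem106b (r = 0.94), a lysosomal membrane protein, and to Obp3 (r = 0.89), a lipocalin of a rat gene family whose members may share reads. The nearest genes of the others were Calr3 and Nicn1 for Arg1 (both r = 0.89), Qprt and Fndc10 for Nags (r = 0.86 and 0.83), Pik3cd and Lrmp for Glul (r = 0.78 and 0.77), and Ube2h and Tkfc for Glud1 (r = 0.84 and 0.83). None of the nearest genes named here passed the test between diets after quantile normalization. Their largest log2 fold changes, just short of the threshold, were those of LOC103690101 (3.17, adjusted p = 0.0523 from limma) and Obp3 (2.36, adjusted p = 0.0530 from limma).

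The genes that supply and surround the cycle were counted in lists, against 1.97% of all tested genes higher and 2.90% lower. Of 12 carriers and helpers of the cycle 3 were tested and 0 passed. Their median log2 fold change, 0.20 against 0.01 over all tested genes, is the value of a single gene, Slc25a13. Among them, Slc25a13, which exports aspartate from mitochondria, was at 0.20 (adjusted p = 0.478 from limma), and Sirt3, a mitochondrial deacetylase, was at 0.29 (adjusted p = 0.617 from limma), or 0.06 without CAS 3 and 0.12 in edgeR. Slc25a12, also tested, went the other way, at -0.12 (adjusted p = 0.730 from limma). Of 13 tested genes that move or use glutamine, glutamate and ammonia 0 passed, with a median of 0.06. The smallest p values belonged to Gclc, which uses glutamate for glutathione, at -0.20 (adjusted p = 0.220 from limma), and to Gmps, which takes the amide of glutamine for purines, at 0.14 (adjusted p = 0.381 from limma).

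Upstream of the cycle, among 24 tested aminotransferases and deaminating enzymes, 3 rose and 1 fell in SPI-fed rats, and 20 did not pass. Hal, which frees ammonia from histidine, had 4698 ± 730.3 normalized counts in SPI-fed rats and 1998 ± 1027 in CAS-fed rats (SD, n = 8 each), a log2 fold change of 1.29 (SE 0.25, adjusted p = 0.00724 from limma). Amdhd1, a later enzyme of histidine breakdown, had 442 ± 208.1 and 163 ± 71.3 in SPI-fed and CAS-fed rats (SD, n = 8 each), a log2 fold change of 1.45 (SE 0.31, adjusted p = 0.0120 from limma). Amdhd1 was picked by the study for targeted PCR from these data, so it is no independent evidence of the list's direction. Both calls were lost when numbers 2 and 8 were left out (adjusted p = 0.0899 for Hal and 0.0615 for Amdhd1 from limma).

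Dao, a peroxisomal oxidase of D-amino acids, was at 0.46 (SE 0.13, adjusted p = 0.0499 from limma), just inside the threshold. Aldh4a1, which turns the semialdehyde of proline and ornithine into glutamate, was at -0.29 (SE 0.07, adjusted p = 0.0253 from limma). The call on Dao was lost in 13 of the 16 fits that leave out 1 library, all but those without SPI 1, CAS 4 or CAS 7, with adjusted p of up to 0.102. That on Aldh4a1 was lost without SPI 1, SPI 3 or CAS 2 (up to 0.0577) and on the deposited scale (-0.12, adjusted p = 0.451), and both were lost without numbers 2 and 8 (adjusted p = 0.236 for Dao and 0.181 for Aldh4a1 from limma). The median of the 24 genes was 0.14 after quantile normalization and 0.21 on the deposited scale, where 5 rose and 0 fell. Sds had the highest log2 fold change of the list, 1.49, with so wide a spread that it did not pass (SE 0.85, adjusted p = 0.369 from limma).

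Downstream of the cycle, of 12 tested genes of arginine, ornithine, polyamines and creatine, 0 rose and 1 fell, with a median of -0.09. The gene that fell was Sat1, which acetylates polyamines for export, at 510 ± 91.2 normalized counts in SPI-fed rats and 776 ± 209.0 in CAS-fed rats (SD, n = 8 each), a log2 fold change of -0.59 (SE 0.14, adjusted p = 0.0187 from limma), a call lost without numbers 2 and 8 (-0.65, adjusted p = 0.0782). Oat, which takes ornithine away from the cycle, was at 0.73 (SE 0.27, adjusted p = 0.142 from limma). Of 6 tested transporters of cationic and neutral amino acids 0 passed (median 0.22), with Slc43a1 and Slc7a5, both carriers of large neutral amino acids, at 0.55 and 1.01 (adjusted p = 0.0917 and 0.176 from limma). Of 20 tested regulators of amino acid breakdown 0 passed (median 0.07), with Tsc22d3, a glucocorticoid target, at 0.81 and Eif4ebp1, a translation repressor, at -0.28.

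Where in the liver lobule a gene is used bears on this set, since urea is made in periportal cells and glutamine in pericentral cells. Of 16 tested periportal genes 1, Hal, rose and 2 fell: Cdh1, an adhesion protein, at -0.76 (SE 0.14, adjusted p = 0.00249 from limma), and Aldh1b1, a mitochondrial aldehyde dehydrogenase, at -0.98 (SE 0.27, adjusted p = 0.0444 from limma). The call on Aldh1b1 was lost in 12 of the 16 fits that leave out 1 library, all but those without SPI 1, SPI 8, CAS 3 or CAS 7, with adjusted p of up to 0.0901, and also in edgeR (0.0529) and without numbers 2 and 8 (0.141). The median of the list was 0.06 after quantile normalization and 0.22 on the deposited scale, where 5 rose and 2 fell. Alb, a member of this list, held the same value in every library after quantile normalization and so could not pass.

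Of 20 tested pericentral genes other than Glul 3 rose and 0 fell, with a median of 0.11, and on the deposited scale 4 rose and 0 fell, with a median of 0.27. They were Cyp1a2, a drug-metabolizing P450 (1.15, SE 0.18, adjusted p = 0.00138 from limma), Rgn, regucalcin, picked by the study for PCR (1.22, SE 0.20, adjusted p = 0.00185 from limma), and Cyp7a1, the rate-limiting enzyme of bile acid synthesis (1.21, SE 0.26, adjusted p = 0.0155 from limma). Both zonal lists thus held calls, and 13 periportal and 17 pericentral genes, like Glul itself, did not pass.

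**Figure D5:**
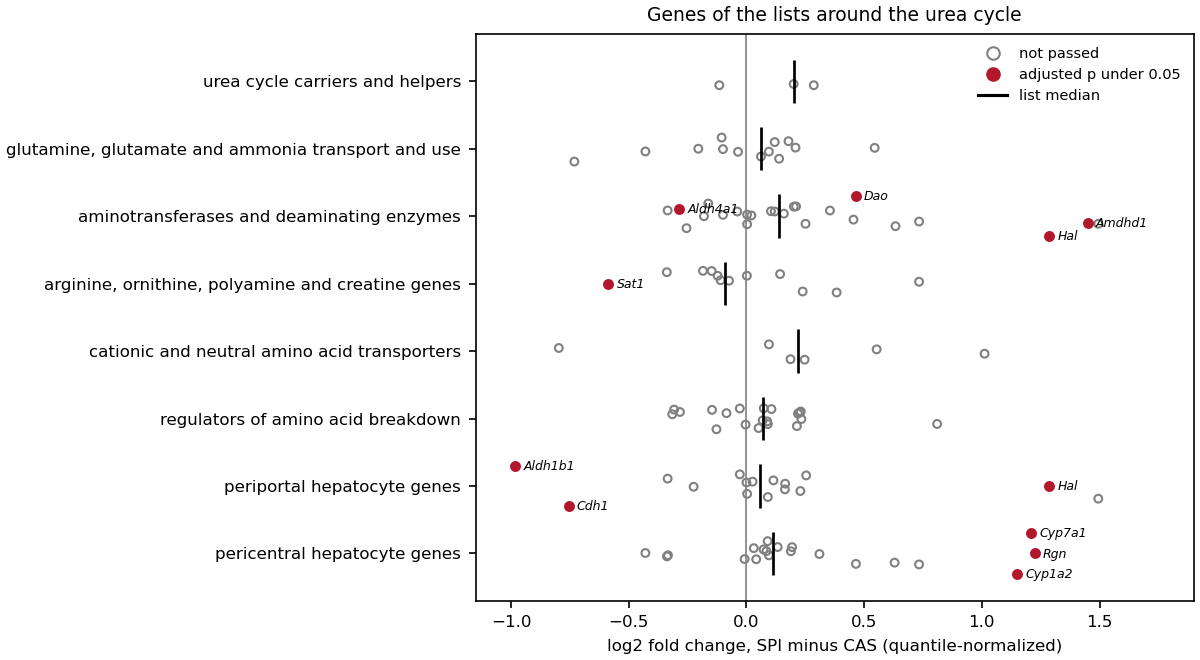
Log2 fold changes (SPI minus CAS, quantile-normalized) of the tested genes in 8 lists around the urea cycle, with genes at an adjusted p under 0.05 filled and named and list medians as bars. Hal (1.29) and Amdhd1 (1.45) stand to the right among the deaminating enzymes, and the lists of carriers, of glutamine and ammonia genes, of transporters and of regulators hold no filled point.

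Markers of liver cell types were measured beside these genes. Of 9 tested hepatocyte markers 1, the fibrinogen chain Fgg, was higher (0.30, adjusted p = 0.0367 from limma), with a call that was lost in 10 of the 16 fits that leave out 1 library, those without SPI 1, SPI 3, SPI 4, SPI 5, SPI 6, SPI 8, CAS 2, CAS 4, CAS 5 or CAS 8, and without numbers 2 and 8 (adjusted p = 0.144). Alb and Tf were at 0 after quantile normalization, which gives a gene of unchanged rank the same value in every library. Neither could therefore pass on that scale. On the deposited scale they were at 0.30 and -0.13. There Fgg and Fga were higher (0.41 and 0.35, adjusted p = 0.00797 and 0.0442 from limma) and 0 hepatocyte markers were lower. The summed hepatocyte markers ranged from 4864480 to 6925320 normalized counts in SPI-fed rats and from 4555140 to 6672960 in CAS-fed rats. Most of this sum was Alb, with means of 4273890 and 3487280 in SPI-fed and CAS-fed rats, and Tf, with 1371090 and 1501080. Of the macrophage, other leukocyte, endothelial, stellate, cholangiocyte and red cell markers, 9, 3, 7, 8, 1 and 6 were tested and 0 passed. Those with the smallest p were Cd163 and Vsig4 of macrophages (0.98 and 0.30, adjusted p = 0.0616 and 0.180 from limma), Lyve1 and Pecam1 of endothelium (0.66 and 0.37), Rgs5 and Reln of stellate cells (-0.68 and -0.81), Ahsp and Hbb-b1 of red cells (0.75 and 0.44) and Cd2 of lymphocytes (-0.59). Cd2 was near the filter, with mean normalized counts of 9.75 in SPI-fed and 15.2 in CAS-fed rats. Only 3 of the 9 macrophage markers were above 0, with a median of -0.08. Of the endothelial markers 4 of 7 were above 0 (median 0.17), and of the red cell markers 6 of 6 (median 0.30). The stellate and fibroblast markers had a median of -0.72 with 0 of 8 above 0. The 9 with a row had summed levels of 3425 to 6123 in SPI-fed rats and 3998 to 6415 in CAS-fed rats. Col3a1 alone had means of 3866 and 4459 in SPI-fed and CAS-fed rats. Lcn2, a secreted lipocalin of neutrophils and stressed hepatocytes, was at -2.33 (adjusted p = 0.0731 from limma). It passed in edgeR (-2.795, adjusted p = 0.0340), in DESeq2 (-2.806, adjusted p = 0.000547) and in 3 of the 16 fits that leave out 1 library. Cd163 passed in DESeq2 (0.91, adjusted p = 0.0488) and in 1 of those 16 fits. Of 3 tested genes typical of intestine, pancreas or kidney, Lrp2, an endocytic receptor, was lower (-0.58, adjusted p = 0.0269 from limma), a call lost without SPI 3, SPI 4, SPI 6, CAS 1, CAS 2, CAS 3, CAS 5 or CAS 8, or without numbers 2 and 8 (adjusted p = 0.173). The part of cell composition in the values of the urea cycle genes was not tested.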

How the data were processed

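RNA from 16 livers was sequenced and 1 table of the whole series was used. Its signal values are gene-level read counts scaled by the authors with a size factor for each library, as DESeq2 does. Division by the smallest step of a library returned whole reads for 100% of values (tolerance 0.05). Other deposited columns hold the authors' mean, log2 fold changes, standard errors, score (a Wald statistic) and p-values, and none of these was used. The submitters' processing notes name Rnor_6.0, FastQC and DESeq2, while the study's methods name CLC Genomics Workbench, RPM, log2 and quantile normalization. The methods and the design text also differ on read length and pairing.

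Normalized counts plus a pseudocount of 1 were put on the log2 scale and quantile-normalized. Genes that reached a value of 10 in 8 or more libraries were tested with limma 3.58.1 (trend and robust, R 4.3.3) and adjusted by Benjamini-Hochberg. The steps were checked on simulated data. Alternatives were the deposited scale, upper-quartile scaling, a pseudocount of 0.5 or 8, a filter at 50 or none, edgeR 4.0.16 (quasi-likelihood) and DESeq2 1.42.0 on whole reads, a block for the replicate number, library weights, omission of numbers 2 and 8 (lane codes out of order with the sample sheet) and omission of each library in turn. Omissions on the deposited scale were added for Otc, Glud1 and Gpt after seeing the data. Correlations used 100000 permutations within diet. The table gives no coordinates or transcript lengths, so counts were not corrected for length. The ranks by mean, the sums of markers and the ratio of Otc to Arg1 use these uncorrected counts.

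The members and lists were chosen with earlier results of these data known. Genes were named by a rule: every member, list genes that passed the test and otherwise up to 2 with the smallest p, and the 2 genes most like each member. Sds, as a member of its list, and Oat, Slc25a12, Alb, Tf, Fga, Clec4f and Col3a1 were named after their values were seen. The labels give an SPI and a CAS library of the same number 1 shared lane code, and numbers 2 and 7 carry the same code. A listed gene was left out and is not reported here. Depth of 14901365 to 21632979 reads per library leaves Nags and Gls2 with few reads. By the study's account the libraries of 1 diet come from different rats, and none was a copy of another. In the sample sheet CAS 1 and CAS 2 carry the same number, and so do SPI 1 and SPI 2.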

Additional observations from a re-analysis of the deposited data

How the results depend on the processing

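The calls on the members turned on the scaling. Members higher numbered 0 after quantile normalization, against 1 on the deposited scale, 1 after upper-quartile scaling, 1 in edgeR and 2 in DESeq2. Members lower numbered 1, against 0 under each of these 4, under the replicate block and without numbers 2 and 8, and 0 to 1 when 1 library was left out. Otc passed at 0.38 on the deposited scale, 0.39 after upper-quartile scaling, 0.36 in edgeR and 0.36 in DESeq2. Arg1 no longer passed at -0.031, -0.017, -0.034 and -0.038 under the same 4, at -0.34 under the replicate block (adjusted p = 0.0615 from limma) and at -0.31 without numbers 2 and 8, and spanned -0.40 to -0.29 with 1 library left out. Upper-quartile scaling and the deposited scale share the lack of a quantile step, and the cause of the difference was not tested.

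Glul was -0.02 after quantile normalization and turned to 0.080 on the deposited scale, 0.094 after upper-quartile scaling, 0.10 in edgeR, 0.10 in DESeq2, 0.050 with a weight per library and 0.28 without numbers 2 and 8, with -0.11 to 0.079 when 1 library was left out. Nags turned to -0.19 without numbers 2 and 8, spanned -0.043 to 0.24 with 1 library left out, and had no value under the filter at 50. The cholangiocyte marker Krt19, -0.55 after quantile normalization, was 0.039 in edgeR and 0.031 in DESeq2.

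Over all genes, 158 higher became 247 after upper-quartile scaling, 308 in DESeq2, 97 under the replicate block, 44 without numbers 2 and 8, and 99 to 203 with 1 library left out. The 232 lower became 361 in DESeq2, 149 under the block, 62 without numbers 2 and 8, and 132 to 288 with 1 library left out. After upper-quartile scaling 218 genes were lower. As to pairing, with diet means removed the same-numbered libraries correlated at -0.0950 to 0.0682, and 0 of 8 correlated best with its own number, so the numbers were not taken as pairs. The replicate block also ended the calls on Aldh4a1, Aldh1b1, Cyp7a1 and Fgg (adjusted p = 0.0782, 0.0959, 0.0702 and 0.0739 from limma). The calls on Cdh1, Cyp1a2 and Rgn held under every alternative run.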
